A study of Mus musculus with 2 samples.

Results

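ISG15 is a ubiquitin-like protein that cells attach to other proteins after exposure to interferon, and the genes described here encode it and the enzymes that put it on and take it off. The members are Isg15, Uba7, Ube2l6, Herc6 and Usp18, which are 5 of the 23176 genes in the authors' deposited table. They were picked by symbol, with their values in this same comparison already known, so those values are given as a description and no test is drawn from them. All 5 had the status of a tested gene.

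The pathway works as a cascade. The activating enzyme (E1) Uba7 charges ISG15 and hands it to the conjugating enzyme (E2) Ube2l6. Herc6, a HECT-type ligase (E3) that carries out most ISG15 attachment in mouse cells, then transfers it to target proteins. The protease Usp18 cuts ISG15 off again and separately binds the interferon receptor chain Ifnar2, where it damps signalling. Interferon induces the whole cascade through transcription factors that include Stat2 and Irf9, and in the brain it is known best from viral infection and inherited interferon disorders.

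The cells were the STHdhQ111 line (genotype HdhQ111/Q111) and the STHdhQ7 line (genotype HdhQ7/Q7), a pair of mouse lines on a 129SvEv/CD1 background. Both came from embryonic day 14 striatum, carry a huntingtin gene with a long (Q111) or a short (Q7) glutamine-coding repeat on both alleles, and had under 15 passages. Both were grown at 33 °C and held at 39 °C for 2 days to halt division, and neither label names an interferon or any other agent. Each line has 1 sample whose title names 3 replicates, and the table gives 1 combined value per line, so there is no replicate spread and the depth is unknown. The comparison asked which genes differ between mutant and normal huntingtin, and genotype cannot be told apart from the separate history of each line.

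Values are the authors' FPKM (fragment counts divided by transcript length and by the mapped total), a scale that allows levels of different genes to be set side by side. A gene is called when the authors' q is 0.05 or less. Of 12740 tested genes 13.5% were called, 6.35% as higher and 7.17% as lower in STHdhQ111. In bulk RNA, a larger share of cells with a transcript and more transcript per cell cannot be told apart. Of 13 listed markers of striatal medium spiny neurons, 9 were under 0.5 FPKM in both lines, and 5 of 6 general neuron markers were as well. The defining markers of the labelled tissue's neurons were thus mostly near 0, which at unknown depth does not show absence. Of 4 tested striatal markers, Foxp1 was called higher (22.4 FPKM in STHdhQ111 and 9.35 FPKM in STHdhQ7). Rgs9 was called lower (0.0624 and 0.629 FPKM in the same lines), and Penk and Pde10a were not called. Of 12 leukocyte markers, 10 were under 0.5 FPKM in both lines, and Tyrobp and Cd3e were listed at 0 in both. The other markers, Cd68 and Laptm5, were called higher, and the summed level of the 12 was 74.1 FPKM in STHdhQ111 and 27.0 FPKM in STHdhQ7, of which Cd68 gave 72.4 and 26.5 FPKM. Ptprc, which marks leukocytes in general, had 0.00334 FPKM in STHdhQ111 and 0.00360 FPKM in STHdhQ7. Csf1r, a receptor of macrophages and microglia, had 0.289 FPKM in STHdhQ111 and 0.00491 FPKM in STHdhQ7, and the microglial gene P2ry12 had 0.0348 and 0.00828 FPKM in the same lines, neither with a test. The part of such cells in the results below was not tested. Among the remaining marker lists, 1 of 2 tested endothelial genes was called higher and 1 lower, neither of 2 tested astrocyte genes was called, and of 6 tested neural progenitor genes 1 was called higher and 3 lower, with a median log2 ratio of (FPKM + 0.5) of -2.51. Those called lower were Sox2 (0.561 FPKM in STHdhQ111 and 72.0 FPKM in STHdhQ7), Nes (0.999 and 35.99 FPKM in the same lines) and Pax6 (0.0213 and 14.9 FPKM), and Dlx2 was called higher (5.73 and 1.94 FPKM). The part of this difference in the members' values was not tested.

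The promoters of Isg15, Uba7 and Ube2l6 are shown because they contrast in the interferon-stimulated response element, the DNA word that Irf9 binds as part of a complex with Stat2. Of the 5 members, 4 had an entry in the RefSeq promoter table (GRCm38.p6), which runs from 250 bases before to 50 bases after the transcript start. Usp18 had no entry. Each is written 5′ to 3′ on the strand of its gene. The core word searched on both strands was GAAA, then any 2 bases, then GAAA again. In Isg15 capitals mark exact matches, which overlap. In Uba7 they mark matches with 1 of the 8 fixed letters changed, since it holds no exact match, and in Ube2l6 there was neither.
Isg15 (chr4:156200769-156201068, minus strand): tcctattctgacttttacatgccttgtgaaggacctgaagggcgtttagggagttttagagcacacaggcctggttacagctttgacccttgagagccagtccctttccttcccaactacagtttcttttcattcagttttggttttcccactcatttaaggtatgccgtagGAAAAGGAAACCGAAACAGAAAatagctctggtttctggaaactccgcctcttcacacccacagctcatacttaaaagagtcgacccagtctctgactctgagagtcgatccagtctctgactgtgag
Uba7 (chr9:107975317-107975616, plus strand): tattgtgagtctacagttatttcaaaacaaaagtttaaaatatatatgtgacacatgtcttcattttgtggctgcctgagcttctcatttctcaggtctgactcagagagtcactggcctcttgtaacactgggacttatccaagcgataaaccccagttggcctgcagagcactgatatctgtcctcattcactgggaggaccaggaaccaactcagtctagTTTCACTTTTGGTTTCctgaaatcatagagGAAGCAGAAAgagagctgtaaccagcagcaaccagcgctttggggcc
Ube2l6 (chr2:84798578-84798877, plus strand): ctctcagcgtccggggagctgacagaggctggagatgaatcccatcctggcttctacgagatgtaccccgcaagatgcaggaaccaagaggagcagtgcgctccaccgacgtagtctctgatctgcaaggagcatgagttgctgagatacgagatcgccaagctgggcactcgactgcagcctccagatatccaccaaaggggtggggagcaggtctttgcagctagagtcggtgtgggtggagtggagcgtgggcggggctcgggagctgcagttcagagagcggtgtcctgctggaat

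The Isg15 window held 3 overlapping exact matches, which together fill bases 173 to 194 of the window and leave 56 bases to the transcript start. Exact matches occur in 3.44% of all 32851 promoter windows in the table. The Uba7 window held 3 matches with 1 letter changed. A pair of them overlap on the opposite strand at bases 224 to 239, close to the start, and the third lies at bases 254 to 263, just after it. Herc6 held 1 such match, on the opposite strand at bases 54 to 63. With 1 letter free, 35.4% of all windows match, so the looser word is common. The longer word, with CT added at its end, was in none of the 4 windows and in 0.271% of all windows. The Ube2l6 window was richer in G and C (59.7%) than those of Isg15 (46.3%), Uba7 (44.7%) and Herc6 (49%), against a median of 52.7% over all windows.

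The modifier itself, Isg15, lies on mouse chromosome 4 (mm9, 155573533 to 155574927). It is a compact gene of 2 exons and 483 coding bases in GENCODE M21. It was listed at 146.9 FPKM in STHdhQ111 and 3.65 FPKM in STHdhQ7, a 40.2-fold difference. Dividing the log2 fold change by the authors' statistic gives the standard error that their test implies, and every interval below comes from it. That error need not be a gene's own spread between replicates. Unrelated abundant genes had nearly the same one (Ube2l3, Usp4 and Usp5 at 0.37). For Isg15 the authors' deposited table lists a log2 fold change of 5.33, whose implied standard error was 0.50 and whose 95% interval ran from 4.35 to 6.31. Isg15 stood above 96.4% of tested genes in STHdhQ111 and above 27.7% of them in STHdhQ7. It was thus among the most abundant tested transcripts in STHdhQ111 and below the middle of the range in STHdhQ7.

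Uba7, the activating enzyme, lies on chromosome 9 (mm9, 107877898 to 107886387) and has 24 exons. Its level was 4.85 FPKM in STHdhQ111 and 0.719 FPKM in STHdhQ7. On the log2 scale the authors' deposited table gives Uba7 a change of 2.75, with 0.52 as the implied standard error and a 95% interval of 1.74 to 3.77. The transcript of the enzyme that starts the cascade was below the middle of the range in both lines. It stood above 34.5% of tested genes in STHdhQ111 and 7.79% in STHdhQ7.

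Ube2l6, the conjugating enzyme, lies on chromosome 2 (mm9, 84638985 to 84650160) and has 4 exons. It was listed at 40.6 FPKM in STHdhQ111 and 13.0 FPKM in STHdhQ7, a 3.12-fold difference. Ube2l6 had a log2 fold change of 1.64 in the authors' deposited table, with 0.42 as its implied standard error and a 95% interval of 0.82 to 2.46. It was the member with the highest level in STHdhQ7 and was 3.57 times as abundant as Isg15 there, whereas in STHdhQ111 Isg15 was 3.62 times as abundant as Ube2l6.

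Herc6, the ligase, lies on chromosome 6 (mm9, 57530986 to 57615130) and has 23 exons. Its level was 3.07 FPKM in STHdhQ111 and 0.977 FPKM in STHdhQ7. For Herc6 the authors' deposited table lists a log2 fold change of 1.65, whose implied standard error was 0.51 and whose 95% interval ran from 0.65 to 2.66. Of the members Herc6 had the lowest level in STHdhQ111 and the highest q in the authors' deposited table (0.0121), so it was not called at a q of 0.01 or less, nor with Benjamini-Yekutieli adjustment of the deposited p-values.

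Usp18, the protease, also lies on chromosome 6 (mm9, 121195924 to 121220935) and has 11 exons. It was listed at 62.1 FPKM in STHdhQ111 and 0.432 FPKM in STHdhQ7, a 144-fold difference. On the log2 scale the authors' deposited table gives Usp18 a change of 7.17, with 0.57 as the implied standard error and a 95% interval of 6.05 to 8.28. Its size rests on a low STHdhQ7 level.

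**Figure D1:**
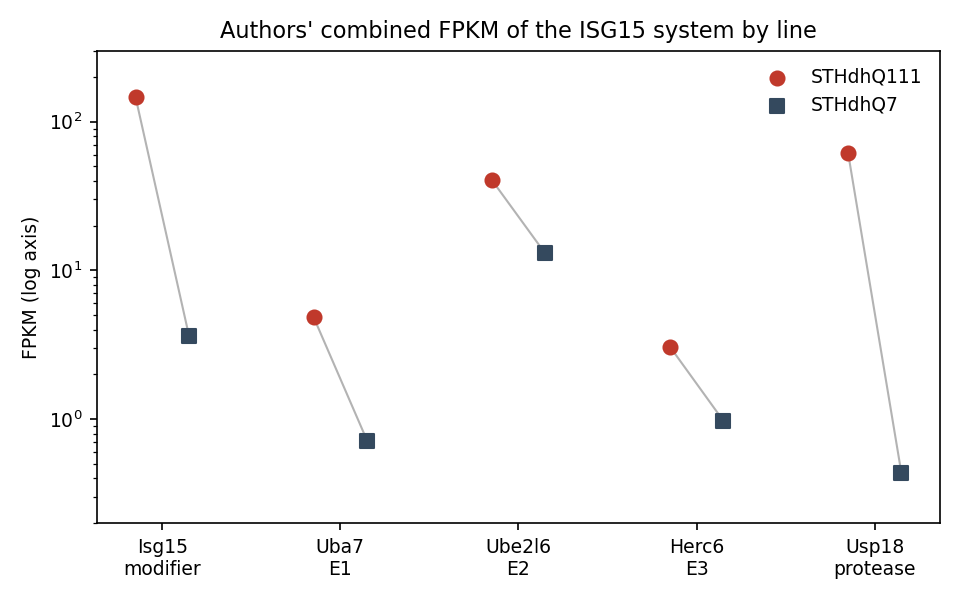
The authors' combined FPKM of each member on a log axis, with STHdhQ111 as red circles and STHdhQ7 as dark squares, joined by a line for each gene. Every member is higher in STHdhQ111, and the lines are steepest for Usp18 (62.1 and 0.432 FPKM) and Isg15 (146.9 and 3.65 FPKM).

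The members did not keep their order or their proportions. In STHdhQ111 the order from high to low was Isg15, Usp18, Ube2l6, Uba7 and Herc6. In STHdhQ7 it was Ube2l6, Isg15, Herc6, Uba7 and Usp18. Without replicate values it cannot be said which neighbours in these orders differ beyond their spread. The summed level of the members was 257.5 FPKM in STHdhQ111 and 18.8 FPKM in STHdhQ7. Isg15 made up 57.0% of the sum in STHdhQ111 and 19.4% in STHdhQ7, and Usp18 made up 24.1% and 2.30% in the same lines. Ube2l6 made up 15.8% in STHdhQ111 and 69.3% in STHdhQ7.

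The ratio of modifier to enzyme, on the FPKM scale, was higher in STHdhQ111 for each of the attaching enzymes. There were 30.3 units of Isg15 per unit of Uba7 in STHdhQ111 and 5.08 in STHdhQ7. Per unit of Ube2l6 there were 3.62 in STHdhQ111 and 0.280 in STHdhQ7, and per unit of Herc6 there were 47.8 in STHdhQ111 and 3.74 in STHdhQ7. For the removing enzyme the ratio went the other way, with 2.37 units of Isg15 per unit of Usp18 in STHdhQ111 and 8.45 in STHdhQ7. The STHdhQ7 ratios per unit of Usp18, Uba7 and Herc6 rest on low levels of those genes (0.432, 0.719 and 0.977 FPKM). Their size is therefore unsure. Ranked by fold change in the authors' deposited table, the order from high to low was Usp18, Isg15, Uba7, Herc6 and Ube2l6.

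All 5 members were called higher in STHdhQ111, beside 6.35% of all tested genes, and 3 of them (Isg15, Uba7 and Usp18) at a fold of 4 or more, beside 3.81%. Since this contrast chose them, nothing is read from those counts. Their median log2 ratio of (FPKM + 0.5) was 2.13, beside -0.05 over all tested genes. This scale understates the change of genes with low levels.

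Relatives of the members, known mainly from other modifiers, are set beside them. One of these relatives, Usp5, is also on the list of ISG15 partners used below. The polyubiquitin gene Ubb was listed at 992.1 FPKM in STHdhQ111 and 1369 FPKM in STHdhQ7, and was not called (the authors' q = 0.746). Uba1, the main ubiquitin-activating enzyme, had 142.0 FPKM in STHdhQ111 and 147.9 FPKM in STHdhQ7. In the authors' deposited table its log2 fold change was -0.06, with an interval of -0.85 to 0.73. The abundance of Uba1 relative to Uba7 was 29.3 in STHdhQ111 and 206 in STHdhQ7.

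Ube2l3, the closest relative of Ube2l6 and a conjugating enzyme for ubiquitin, had 68.2 FPKM in STHdhQ111 and 75.0 FPKM in STHdhQ7. In the authors' deposited table Ube2l3 had a log2 fold change of -0.14 with an interval of -0.86 to 0.59. Herc3, a ligase of the Herc family, had 1.21 FPKM in STHdhQ111 and 2.93 FPKM in STHdhQ7. The authors' deposited table gives Herc3 a log2 fold change of -1.27 with an interval of -2.33 to -0.22, and it was not called (the authors' q = 0.110). Usp5, a protease that disassembles free ubiquitin chains, had 45.4 FPKM in STHdhQ111 and 43.8 FPKM in STHdhQ7, with an interval of its log2 fold change of -0.68 to 0.78.

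**Figure D2:**
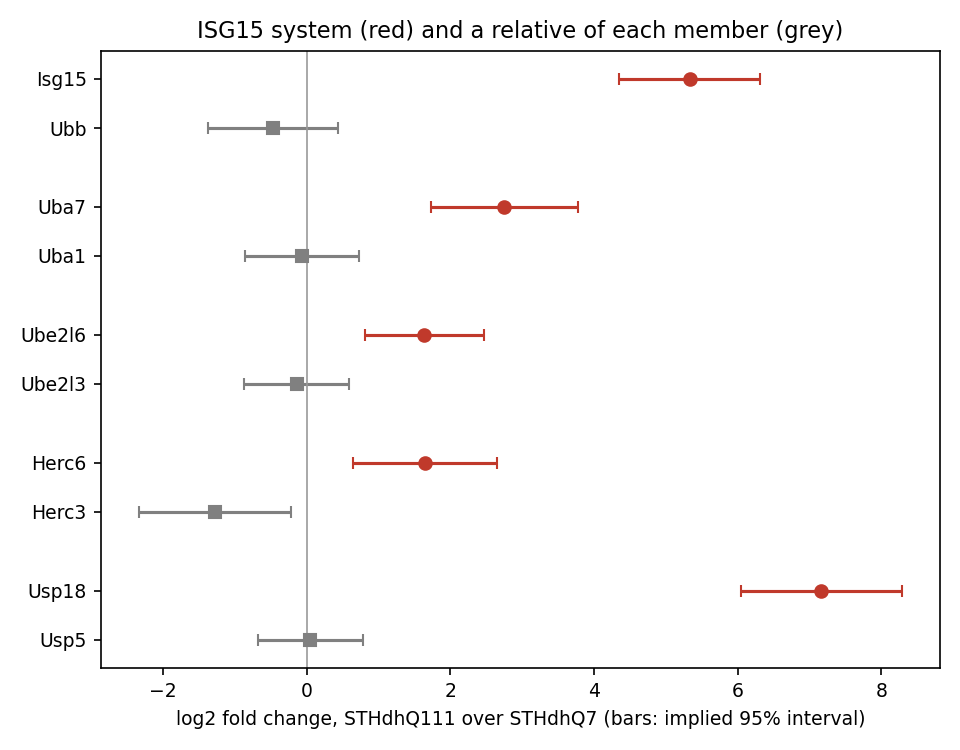
Log2 fold changes of the authors' deposited table, STHdhQ111 over STHdhQ7, for each member (red circles) and for a relative (grey squares), with 95% intervals from the implied standard error. The relative Usp5 is also on the list of ISG15 partners. The members lie between 1.64 (Ube2l6) and 7.17 (Usp18), and the intervals of Ubb, Uba1, Ube2l3 and Usp5 span 0.

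The wider families gave few calls. Leaving out the members, 126 genes on lists of ubiquitin-like modifiers, E1 enzymes, E2 enzymes, HECT ligases and ubiquitin-specific proteases were tested. The E2 list includes Ube2cbp and the protease list Usp6nl, which have like symbols but are not such enzymes. Neither was called. Some of the 126, Usp5 among them, are also on the list of ISG15 partners used below. Of the 126, 1 was called higher (0.794%, beside 6.35% of all tested genes) and 1 was called lower (0.794%, beside 7.17%). The gene called higher was Smurf2, a ligase that limits TGF-beta signalling, at 35.8 FPKM in STHdhQ111 and 10.1 FPKM in STHdhQ7. The gene called lower was Ube2t, the conjugating enzyme of the Fanconi anaemia repair pathway, at 3.43 FPKM in STHdhQ111 and 11.9 FPKM in STHdhQ7.

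By list, none of 17 tested modifiers, none of 9 tested E1 enzymes and none of 43 tested genes on the protease list was called. Over all tested genes 13.5% were called, so the lack of a call among 9 E1 enzymes says little. The modifiers had log2 ratios of (FPKM + 0.5) between -0.52 (Sumo3) and 0.65 (Map1lc3a), and the proteases between -1.17 (Usp2) and 0.55 (Usp8). Among 33 tested genes on the E2 list 1 was called lower (beside 7.17% of all tested genes). Among 24 tested HECT ligases 1 was called higher (beside 6.35%). Abundant genes that were not called include the SUMO-activating subunit Sae1, which had 56.0 FPKM in STHdhQ111 and 87.3 FPKM in STHdhQ7. The ligase Nedd4 had 225.3 FPKM in STHdhQ111 and 239.4 FPKM in STHdhQ7, and the E2 enzyme Cdc34 had 227.6 and 154.8 FPKM in the same lines.

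Partners of the cascade gave few calls, and with 13 tested genes the counts say little. Of 13 tested partners, 2 were called higher and 1 lower (beside 6.35% and 7.17% of all tested genes), and 10 were not called, with a median log2 ratio of (FPKM + 0.5) of 0.05. Trim25, a ligase reported to attach ISG15 as well as ubiquitin, had 11.5 FPKM in STHdhQ111 and 1.91 FPKM in STHdhQ7. Trim25 had a log2 fold change of 2.58 in the authors' deposited table, with 0.43 as its implied standard error (the authors' q = 6.39e-08). Stat2, through which Usp18 is brought to the interferon receptor, had 48.5 FPKM in STHdhQ111 and 8.04 FPKM in STHdhQ7.

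Itgb2 was the partner called lower. It encodes a chain of the leukocyte integrin LFA-1, which free ISG15 outside cells is known to bind, and had 2.06 FPKM in STHdhQ111 and 6.13 FPKM in STHdhQ7 (the authors' q = 0.0175). The other chain, Itgal, was near 0 at 0.0162 FPKM in STHdhQ111 and 0.0749 FPKM in STHdhQ7 and had no test. Ifnar2, the receptor chain that Usp18 binds, had 43.3 FPKM in STHdhQ111 and 27.7 FPKM in STHdhQ7 and was not called (the authors' q = 0.513). Skp2, which in human cells marks USP18 for degradation, had 3.56 FPKM in STHdhQ111 and 5.06 FPKM in STHdhQ7 and was not called. Arih1, a further ligase reported for ISG15 in human cells, had 26.8 FPKM in STHdhQ111 and 30.0 FPKM in STHdhQ7 and was not called either.

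Among genes whose proteins are reported to carry ISG15, 6 of 20 tested were called higher and 1 lower (beside 6.35% and 7.17% of all tested genes), and 13 were not called. Those called higher include Ifit1, Ifih1, Mx1, Ddx58 and Eif2ak2, which are interferon-inducible genes in their own right. Ifih1, a sensor of double-stranded RNA, had 2.94 FPKM in STHdhQ111 and 0.213 FPKM in STHdhQ7. The RNA sensor Ddx58 had 22.4 FPKM in STHdhQ111 and 6.43 FPKM in STHdhQ7, and the kinase Eif2ak2, which stops translation on sensing double-stranded RNA, had 21.3 and 8.65 FPKM in the same lines. Pcna, the sliding clamp of DNA replication, was the target called lower, with 95.9 FPKM in STHdhQ111 and 292.1 FPKM in STHdhQ7 (the authors' q = 0.000448). The 13 targets that were not called include Trp53, the p53 tumour suppressor (100.8 FPKM in STHdhQ111 and 94.1 FPKM in STHdhQ7), and the kinase gene Mapk3 (72.6 and 121.6 FPKM in the same lines). The list's median log2 ratio was 0.15.

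**Figure D3:**
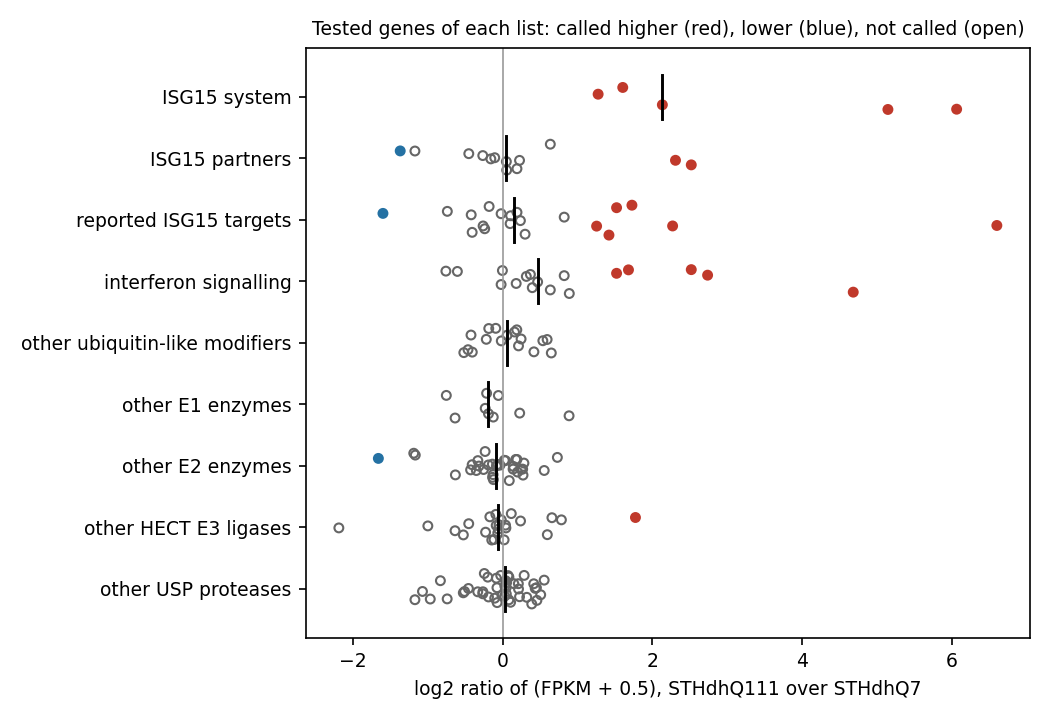
Log2 ratio of (FPKM + 0.5), STHdhQ111 over STHdhQ7, of every tested gene in each list, with called genes filled (red higher, blue lower), uncalled genes open and a black bar at each median. The ISG15 system has a median of 2.13, while the medians of the other lists lie between -0.19 (other E1 enzymes) and 0.47 (interferon signalling). The members were chosen with this contrast known, so nothing is read from their median. A gene can be on several of the other lists.

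Of 17 tested interferon signalling genes 5 were called higher (beside 6.35% of all tested genes), none was called lower (beside 7.17%) and 12 were not called, and the median log2 ratio was 0.47, beside -0.05 over all tested genes. Stat2 and Irf9 were among them. Irf9 had 45.3 FPKM in STHdhQ111 and 6.36 FPKM in STHdhQ7, and in the authors' deposited table it had a log2 fold change of 2.83 (implied standard error 0.42, the authors' q = 1.41e-09). Irf7, which amplifies interferon production, was also called higher, at 79.7 FPKM in STHdhQ111 and 2.62 FPKM in STHdhQ7 (log2 fold change 4.93). So was Socs3, a feedback inhibitor of cytokine receptors, at 29.1 FPKM in STHdhQ111 and 8.74 FPKM in STHdhQ7.

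The tested receptors and kinases of the same list were not called, nor were the factors Irf1, Irf2, Irf3 and Irf5. Ifnar1 had 13.3 FPKM in STHdhQ111 and 10.1 FPKM in STHdhQ7, and Tyk2 had 7.84 and 6.87 FPKM in the same lines. Irf3, which can induce Isg15 without interferon, had 18.2 FPKM in STHdhQ111 and 18.4 FPKM in STHdhQ7. Of 19 listed interferon genes 15 were at 0 in both lines, Ifnb1 among them, and 1 had a test. That gene, Ifnz, had 0.923 FPKM in STHdhQ111 and 0.560 FPKM in STHdhQ7 and was not called (the authors' q = 0.774). The highest interferon value after Ifnz was 0.0651 FPKM, of Ifne in STHdhQ7. A listed 0 here does not show absence, since the depth is unknown.

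The genes beside the members on the chromosome were compared to see whether a whole stretch differed. Of 49 listed genes within 5 places of a member, 30 were tested, 4 were called higher, 2 were called lower and no locus overlapped that of a member. Over all tested genes 6.35% were called higher and 7.17% lower. Around Isg15 none of 6 tested neighbours was called. The nearest, Agrn, which encodes the synapse organiser agrin and lies 1935 bases away, had 53.5 FPKM in STHdhQ111 and 58.7 FPKM in STHdhQ7. Around Herc6 none of 4 tested neighbours was called, and the untested ones were vomeronasal receptor genes listed at 0 in both lines.

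Beside Usp18, 1 of 5 tested neighbours was called. It was the adjacent Tuba8, an alpha-tubulin gene 19808 bases away, at 5.97 FPKM in STHdhQ111 and 1.50 FPKM in STHdhQ7. Beside Uba7, 1 of 7 was called, and it was lower: Traip, a ligase acting at stalled replication forks, had 1.30 FPKM in STHdhQ111 and 4.10 FPKM in STHdhQ7. Ube2l6 had the most calls near it, with 3 of 8 tested neighbours higher and 1 lower. Smtnl1, a smoothelin-like muscle protein 1172 bases away, had 2.27 FPKM in STHdhQ111 and 0.158 FPKM in STHdhQ7. Slc43a3, a purine base transporter, had 38.6 FPKM in STHdhQ111 and 0.185 FPKM in STHdhQ7, and Rtn4rl2, a Nogo receptor relative, had 3.99 and 0.520 FPKM in the same lines. Serping1, the C1 inhibitor of complement, was the neighbour called lower, with 0.483 FPKM in STHdhQ111 and 2.78 FPKM in STHdhQ7. Timm10, a mitochondrial import protein gene that lies between Smtnl1 and Rtn4rl2, was listed at 17.2 FPKM in STHdhQ111 and 17.9 FPKM in STHdhQ7.

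**Figure D4:**
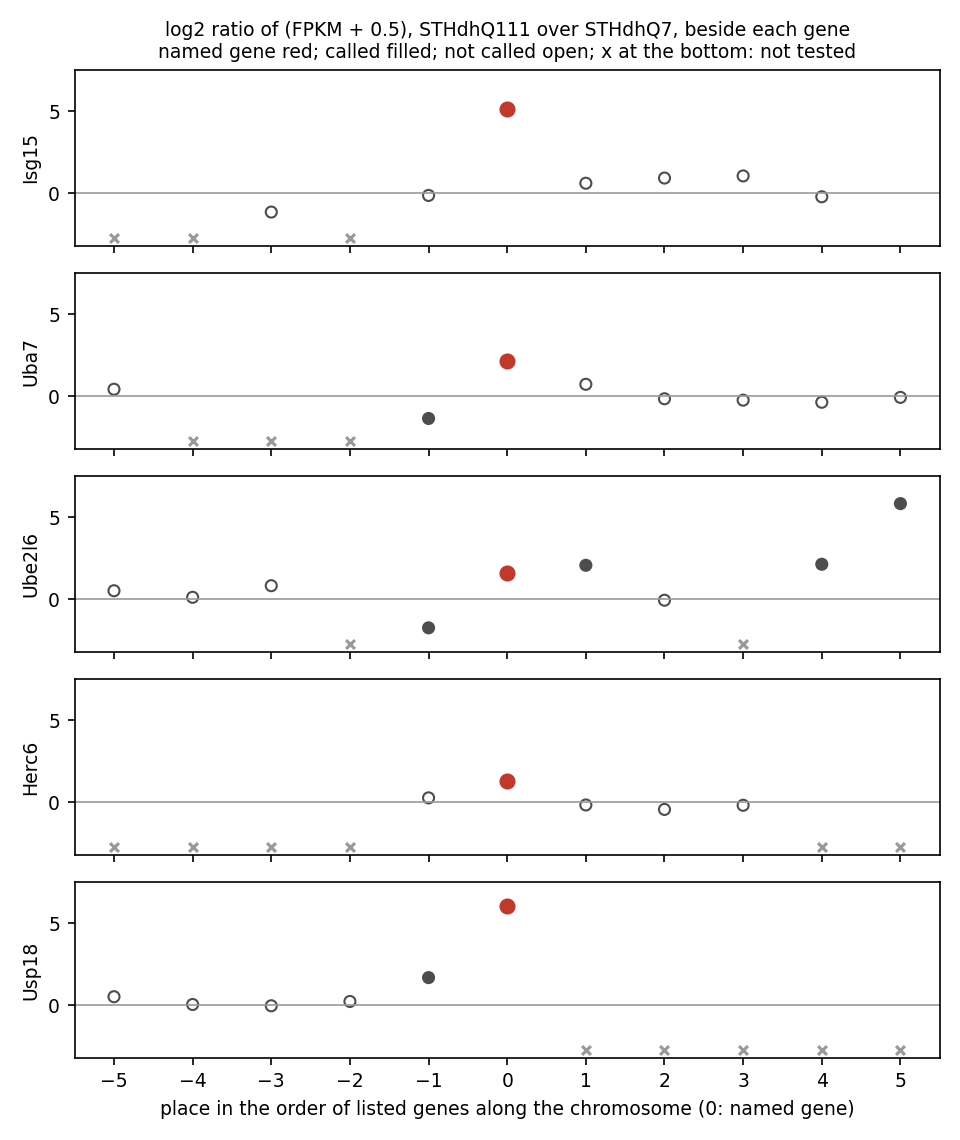
Log2 ratio of (FPKM + 0.5), STHdhQ111 over STHdhQ7, of each member (red, place 0) and of the listed genes up to 5 places away, by order along the chromosome, with called neighbours filled, uncalled ones open and untested ones as crosses at the bottom of each panel. No neighbour of Isg15 or Herc6 is filled, and 4 neighbours of Ube2l6 are.

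Genes with levels most like each member were found by distance between their values on the log2(FPKM + 0.5) scale, over 2 values each (the lines), so a small distance says only that both levels are close. The nearest to Uba7 was Trim14, an adaptor of antiviral signalling, at a distance of 0.0119, with 4.81 FPKM in STHdhQ111 and 0.723 FPKM in STHdhQ7. Rnf43 (0.0890) and Ms4a10 (0.161) followed. The nearest to Isg15 was Ptx3, a secreted pentraxin, at a distance of 0.214, followed by Lgals9 and Igfbp2. The nearest to Usp18 was the oligoadenylate synthetase-like gene Oasl2 at 0.556, followed by Eps8l2 and Sim2. Ube2l6 was nearest to Atoh8 (0.107) and Herc6 to Acvrl1 (0.0625).

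Reads of the members can mostly be told from those of other genes. Words of 36 bases from each member's GENCODE M21 transcripts were searched in the transcripts of all other genes on both strands. For Uba7 and Usp18 no word occurred in a gene elsewhere in the genome, and 99% of those of Herc6 did not. For Isg15 90.2% did not, and 57 of its 71 shared words lay in a processed pseudogene on chromosome 17. For Ube2l6 86.7% did not. Some words of Uba7, Herc6 and Usp18 were shared with other gene models at the same place (Gm20661, Gm45193 and Gm44148), none of which is a gene of the deposited table. The library method is not described as keeping strand, and the strand of these overlapping models was not compared with that of the member. Reads from them could count towards the member.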

How the data were processed

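Polyadenylated RNA of each line was sequenced after random priming, per the labels' protocols. TopHat 1.4.0, Bowtie 0.12.7, Cufflinks 2.0.2, Cuffdiff and the mm9 build are named in the submitters' processing notes. The deposited table holds the authors' FPKM per line, combined over replicates, and their log2 fold change, test statistic (a score), p-value and q-value, per the file headers. Program options and the annotation: not given in the sources used here. Placeholders in the log2 fold change column, present where a line is at 0, were left out. The sign of the statistic is opposite to the fold change, so its size was used. Adjusting the deposited p-values over tested genes (Benjamini-Hochberg) returned the deposited q-values within 2.22e-06.

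No test could be run on combined values. The labels do not call the replicates separate cultures, and the spread behind the deposited p-values may be technical. Implied 95% intervals are the log2 fold change ± 1.96 implied standard errors. Locus starts were raised by 1 (0-based in the table). Coordinates of loci are mm9, and those of promoters GRCm38.p6. The members and the 15 gene lists were chosen with earlier results of these data known. Named genes are the members, in each list the called genes (up to 5 per direction) and the 2 uncalled with the highest mean FPKM, called neighbours, the 3 genes nearest each member and fixed relatives. Some of these are left out for length or given without values. Arih1, Skp2, Itgal, Ifnar1, Tyk2, Irf1, Irf2, Irf3, Irf5, Agrn, Timm10, Eif2ak2, Ifne, Sumo3, Map1lc3a, Usp2, Usp8 and the single cell type markers were named after their values were seen. Protein identity between members was planned and not run, since no protein table was used here. Steps were tested on simulated data. Python 3.11.15, numpy 2.4.6, pandas 2.3.3 and matplotlib 3.10.9 were used.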

Additional observations from a re-analysis of the deposited data

How the results depend on the processing

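Of the 5 members called higher in STHdhQ111, 4 were called at a q of 0.01 or less and 4 with Benjamini-Yekutieli adjustment, Herc6 being lost in both, and 3 had a fold of 4 or more (Isg15, Uba7 and Usp18). The log2 ratio of Usp18 was 6.07 with a pseudocount of 0.5, 6.87 with 0.1 and 5.46 with 1. Over all tested genes the calls fell to 518 higher and 561 lower with Benjamini-Yekutieli adjustment and to 486 higher and 562 lower with a fold of 4 or more, against 809 and 914. A stricter threshold removes genes by its construction. With 10 places on either side, 6 of 49 tested neighbours were called higher and 2 lower. Of the other genes described as called, Dlx2, Eif2ak2, Foxp1, Itgb2, Serping1, Traip and Ube2t were not called at a q of 0.01 or less. The promoter word with 1 letter changed was added after seeing the data. The single members' other log2 ratios moved by less than their implied standard error under each pseudocount and scaling tried, and none changed direction. No paired analysis was possible because the table holds 1 combined value per line, and for the same reason no replicate could be left out. Depth and replicate spread are unknown, which limits what the near-0 values can show.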
